A study of Homo sapiens with 6 samples.

Results

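The 26S proteasome is the protease that degrades proteins marked with ubiquitin. Its 20S core is a barrel of stacked rings, in which the α subunits form the outer rings and gate the channel and the β subunits form the inner rings, where PSMB5, PSMB6 and PSMB7 carry the chymotrypsin-like, caspase-like and trypsin-like sites. The 19S cap recognises the ubiquitin chain, removes it and feeds the unfolded protein into the core, using a ring of ATPases and a lid with a deubiquitinase. The genes of the subunits are known to be transcribed in concert, with NFE2L1 (NRF1) raising many of them when the proteasome is short of capacity. The genes described here are the 34 constitutive subunits and cap factors PSMA1 to PSMA7, PSMB1 to PSMB7, PSMC1 to PSMC6 and PSMD1 to PSMD14, chosen by name, without the inducible PSMB8, PSMB9 and PSMB10. All 34 were among the 16390 genes listed, and all 34 were among the 13055 genes that passed the filter on low counts.

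SW780 is an established human line from bladder cancer, used by the study as a luminal type. RC48 (disitamab vedotin) couples an antibody against ERBB2 to monomethyl auristatin E, an inhibitor of tubulin polymerisation. Total RNA was sequenced from 3 libraries of Control SW780 cells and 3 libraries of SW780 cells exposed to RC48 at 25 µg/ml, and the exposure time is not given in the sources used here. All 6 libraries came from the same line, and nothing in the labels says that they came from separate cultures, so the p-values measure the spread between libraries, which may be technical. Levels are given as CPM (counts relative to the total of a library, scaled by the trimmed mean of M values, TMM), or as TPM (counts relative to transcript length and to the total of a library) where genes are compared with each other.

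Library totals ran from 16453233 to 17988030 estimated counts, so that each member had between 494 and 19662 counts in a library. The luminal genes GATA3, FOXA1, PPARG and ERBB2 were at 235, 147, 162 and 205 CPM on average in Control, whereas the luminal KRT20 was at 1.98 CPM, the basal gene KRT5 was at 6.09 CPM and the basal gene CD44 was at 330 CPM. Of the leukocyte genes, PTPRC was at 0 in every Control library and CD3E, CD14 and LYZ were at 0.311, 0.349 and 0.505 CPM. The luminal UPK2 and the basal KRT14 and KRT6A were at 16.4, 3.22 and 3.90 CPM in Control. The fibroblast gene COL1A1 was at 9.80 CPM with DCN at 0.0772 CPM, and the endothelial genes PECAM1 and VWF were at 19.1 and 7.96 CPM. CD3E (0.99 CPM), CD14 (0.955 CPM), KRT14 and COL1A1 were higher in RC48 with no overlap between the groups (17.4% of all genes). FOXA1, KRT20 and PECAM1 were lower with no overlap (14.1%). Of these, KRT20 was called by edgeR's quasi-likelihood test (log2 fold change -1.55, adjusted p = 0.0489). The part of these genes in the results below was not tested. Control replicates 1 and 2 were close to each other, and the RC48 libraries stood apart. Across all genes, the ratio to Control followed the GC content of the transcripts in RC48 replicate 1 (Spearman's rho = 0.76) and replicate 3 (0.59) but not in replicate 2 (-0.02). The ratio of Control replicate 3 to the other Controls followed transcript length (0.62). For Control replicates 1 and 2 against the other Controls, the relation to length was negative (-0.42 and -0.54). In RC48 replicates 1, 2 and 3 the ratio to Control had a rho of -0.29, 0.02 and -0.29 with length. These libraries are therefore given separately below.

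In Control, the subunits were abundant but unequal in level. The 34 genes together took 1.13%, 1.14% and 1.11% of the TPM of the 3 Control libraries. Among the 34, the proteasome α subunit PSMA7 had the highest level, at 1102 TPM ± 47.0 (SD, n = 3). It was followed by the β subunits PSMB4 (741 ± 9.11) and PSMB1 (690 ± 8.39). At the other end were PSMD9 (31.4 ± 1.30) and PSMD5 (32.4 ± 1.56), both of which are chaperones of cap assembly, and the lid subunit PSMD12 (62.4 ± 2.17). The highest member was thus 35.1 times the lowest. Without the 3 assembly chaperones, PSMA7 was 17.7 times the lowest listed subunit of the finished particle, PSMD12. Within the core the spread was 10.5-fold, from PSMB2 (105 TPM) to PSMA7, and within the ATPase ring it was 3.41-fold, from PSMC6 (128 TPM) to PSMC3 (436 TPM). When the 34 genes were ordered by level, the Control libraries were separate in 12 of the 33 neighbouring pairs and overlapped in 21, for example between PSMD4 (353 TPM) and PSMB5 (352 TPM). The summed TPM of the 14 core members was 1.59, 1.59 and 1.56 times that of the 20 cap members in Control. In RC48 replicates 1 and 3 it was 1.54 and 1.57 times. The ratio thus differed little among the 5 libraries with deposited TPM used here. The 20 cap members include the 3 assembly chaperones. The cap subunits SEM1 (1399 TPM in Control) and ADRM1 (341 TPM in Control) are not among them, so the ratio describes the list and not the particle. No TPM is used for RC48 replicate 2.

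**Figure D1:**
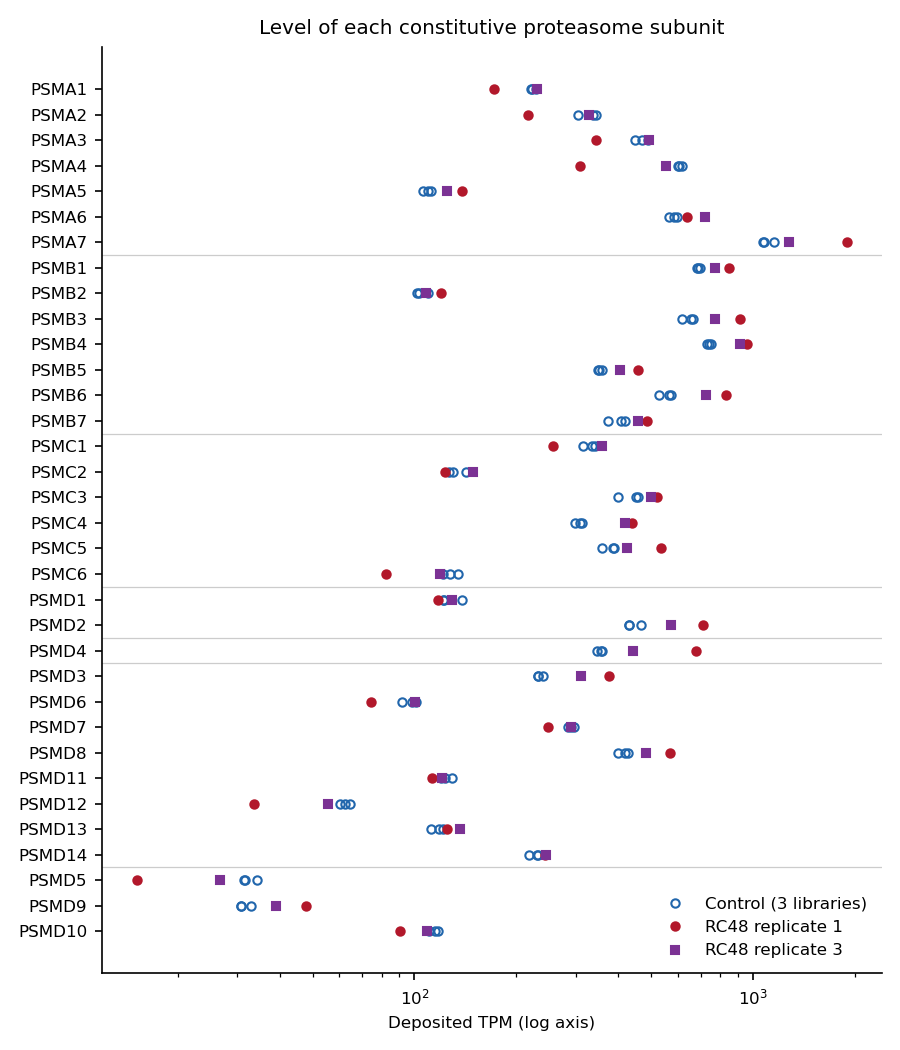
Deposited TPM (log axis) of the 34 genes, ordered by role with thin lines between the groups (α ring, β ring, ATPases, scaffolds, ubiquitin receptor, lid, assembly chaperones). Open circles are the 3 Control libraries, filled symbols RC48 replicates 1 and 3. The levels span 35.1-fold in Control, from PSMD9 (31.4 TPM) to PSMA7 (1102 TPM).

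Exposure to RC48 was compared with Control to see how the RNA of these genes stood in treated cells. On the fitted values, 28 of the 34 genes were higher in RC48 (51.4% of all genes tested were), with a median log2 fold change of 0.29 for the members and 0.02 for all genes. No member was called by edgeR's quasi-likelihood test at an adjusted p below 0.05, where 2.21% of all genes were called. The adjusted p-values of the members ran from 0.137 to 0.984. At an unadjusted p below 0.05 there were 12 members, all higher, against 11.9% of all genes that were higher at that level. DESeq2 called PSMC4 alone (4.78% of all genes), and limma on log2(TPM+1) without RC48 replicate 2 called no member (1.79%), with 21 of 34 members higher and a median of 0.18. The 95% intervals included 0 in 22 members and lay above 0 in 12, and their bounds ran from -0.84 to 1.27, so that a doubling lay within the interval of 4 members. In bulk RNA, a change in the share of cells of a kind and a change of RNA per cell cannot be told apart.

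Replicate by replicate, the genes stood as follows. In 19 of the 34 members the lowest RC48 library was above the highest Control library (17.4% of all genes), and in 0 was the order reversed. In RC48 replicate 1, 24 members were above the Control mean, with a median log2 ratio of 0.40 (0.03 over all genes). Individual members ranged widely, from PSMD5 (-0.92) to PSMD4 (1.21). In RC48 replicate 3, 30 members were above the Control mean, with a median of 0.27 (-0.003 over all genes). In RC48 replicate 2, the library without a trend on GC content, all 34 members were above the Control mean (51.5% of all genes), with a smaller median of 0.11, from PSMA2 (0.01) to PSMB7 (0.33). Control replicate 3 was the lowest Control library in 32 of the 34 members (42.9% of all genes) and lowers the Control mean. Measured against every Control library instead of the mean, 25 of the 34 members were above in RC48 replicate 2 (33.4% of all genes). It was 23 in replicate 1 and 28 in replicate 3. For replicates 1 and 3 no share of all genes was computed, either here or for the members above the Control mean. Whether those counts are unusual is therefore not shown. The share of a library's counts taken by the 34 genes was 0.740%, 0.749% and 0.679% in Control and 0.925%, 0.797% and 0.854% in RC48. The groups did not overlap in this share.

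**Figure D2:**
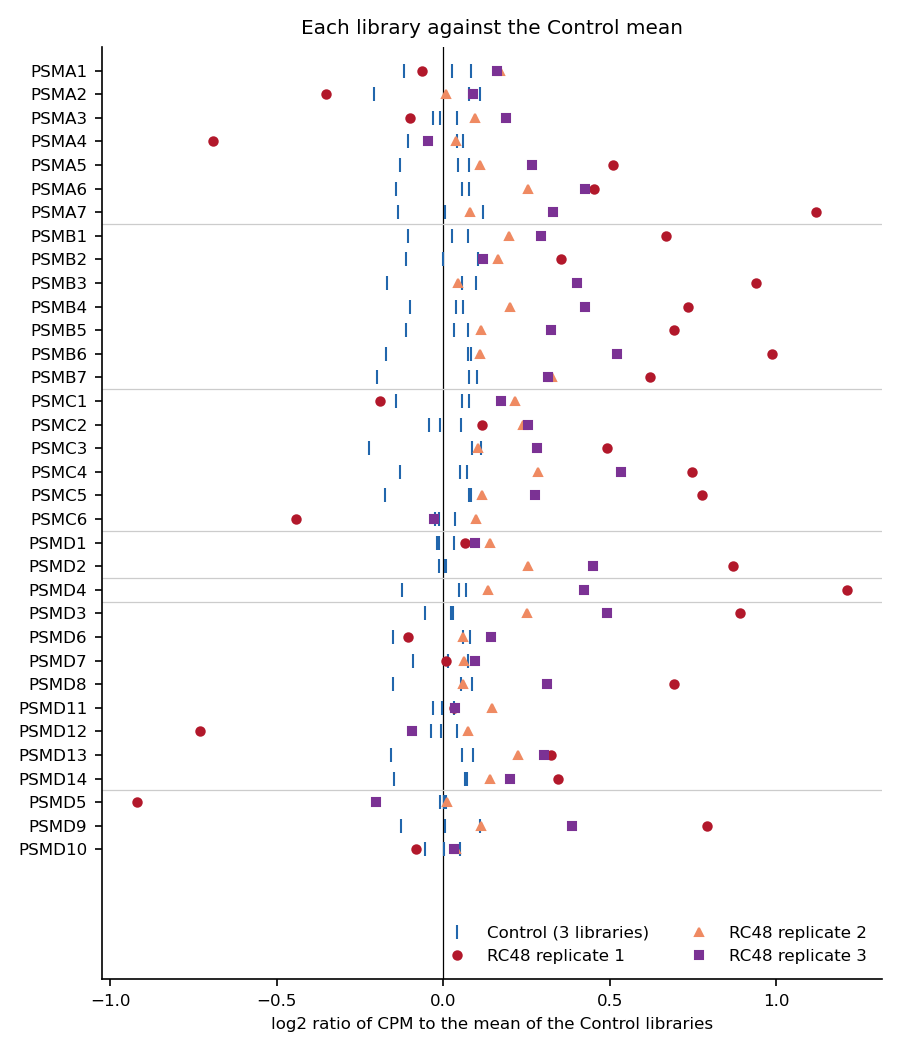
The log2 ratio of CPM to the mean of the Control libraries for each of the 34 genes, ordered by role. Blue ticks are the 3 Control libraries, and symbols the 3 RC48 libraries. RC48 replicate 1 spreads from -0.92 (PSMD5) to 1.21 (PSMD4), while all 34 genes of replicate 2 sit between 0.01 and 0.33.

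The spread among the members followed their base composition. The 14 members with a transcript GC content of 50% or more had a median log2 fold change of 0.49 and all 14 were higher, whereas the 13 members under 45% had a median of 0.04 and 7 of them were higher. The 7 members between these limits had a median of 0.09. Over the 34 members, the log2 ratio to Control and the GC content had a Spearman's rho of 0.80 in RC48 replicate 1 and 0.78 in replicate 3, as a description over genes of the same libraries. In RC48 replicate 2 it was 0.33. The members were therefore also compared after the trend of each library on GC content had been removed. In that fit 33 of the 34 members were higher (53.7% of all genes), with a median of 0.32. The members under 45% and those of 50% or more had the same median, 0.33, while the 7 between them were at 0.13. The libraries were not alike after the correction. The corrected median log2 ratio of the members was 0.51, 0.12 and 0.28 in RC48 replicates 1, 2 and 3. For the members under 45% it was 0.50, 0.09 and 0.33. PSMA5, whose transcripts have a GC content of 38.9%, moved most, from 0.30 to 0.84 ± 0.28 (SE). It was not called by edgeR's quasi-likelihood test (adjusted p = 0.107). Its corrected log2 ratios to the Control mean were 1.45, 0.11 and 0.65 in RC48 replicates 1, 2 and 3. The lowest member, PSMD5, moved from -0.32 to -0.11.

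**Figure D3:**
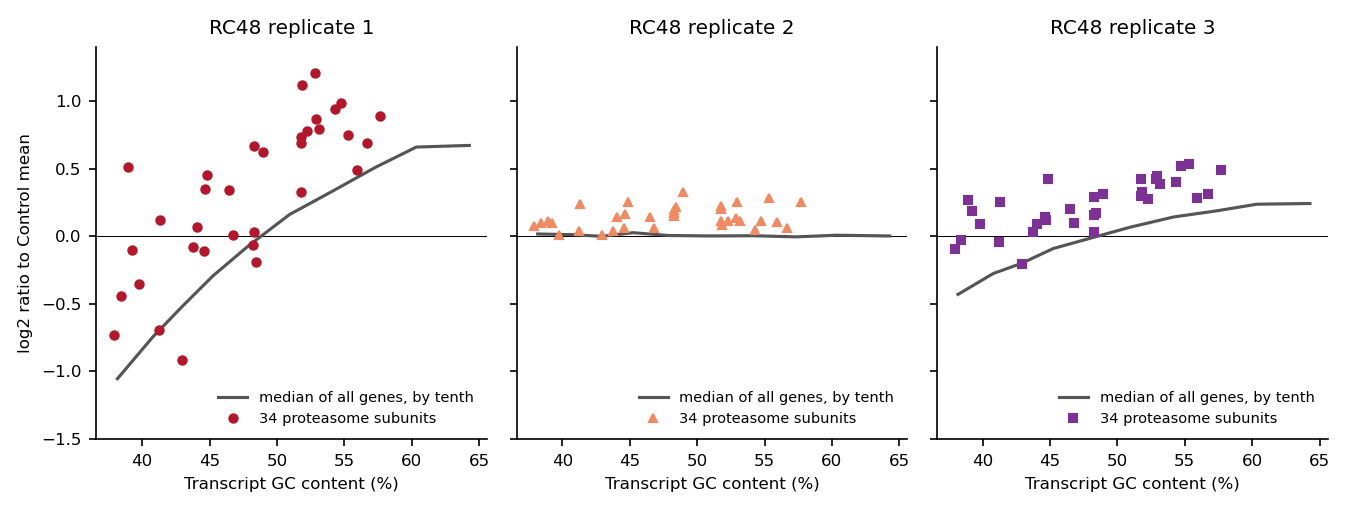
The log2 ratio to the Control mean against the GC content of a gene's transcripts (%), 1 panel per RC48 library. Symbols are the 34 genes, and the grey line joins the medians of all genes in 10 bins of GC content. The line climbs from -1.05 to 0.67 in replicate 1 and from -0.43 to 0.24 in replicate 3 and is flat in replicate 2.

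With the GC content corrected, 5 members were called, and all 5 rose (8.2% of all genes were called in that fit, 5.52% as higher). These were PSMA6, an α subunit, with a log2 fold change of 0.54 ± 0.14 (SE, adjusted p = 0.0466), the ATPases PSMC2 (0.55 ± 0.13, adjusted p = 0.0402) and PSMC4 (0.35 ± 0.08, adjusted p = 0.0331), the scaffold PSMD2 (0.42 ± 0.10, adjusted p = 0.0383) and the lid subunit PSMD3 (0.32 ± 0.07, adjusted p = 0.0348). By the RefSeq annotation (GRCh38.p14) these genes lie apart in the genome, PSMA6 at chr14:35278558-35317493, PSMC2 at chr7:103347524-103369395, PSMC4 at chr19:39971165-39981764, PSMD2 at chr3:184299241-184309050 and PSMD3 at chr17:39980807-39997959. In all 5, the 3 RC48 libraries lay above the 3 Control libraries, as they did in 23 of the 34 members (18.9% of all genes). With transcript length corrected as well, 6 members were called, these 5 and PSMB7 (10.6% of all genes, 6.56% as higher). In that fit 33 of 34 were again higher, with a median of 0.26. The correction for length alone gave 0 calls, 23 of 34 members higher (49.6% of all genes) and a median of 0.17. The members were short, with a median relative length 0.43 times that of all genes. The number of calls moved with single libraries. With no correction, 3 members were called without RC48 replicate 1, namely PSMC4, PSMD2 and PSMD3 (6.82% of all genes, 4.61% as higher). Without RC48 replicate 2 it was 15, all higher (28.3%, 14.1% as higher). Limma's voom with a quality weight for each library called 22 higher and PSMD5 lower (61.4%, 30.4% as higher). With the GC correction, 0 members were called when a Control library, or else RC48 replicate 3, was left out. It was 7 without RC48 replicate 1 (13.2% of all genes, 7.79% as higher) and 22 without RC48 replicate 2 (15.4%, 9.19% as higher). The number of members with a higher fitted level was less dependent on the libraries, at 33 or 34 of 34 in each of these 6 fits.

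**Figure D4:**
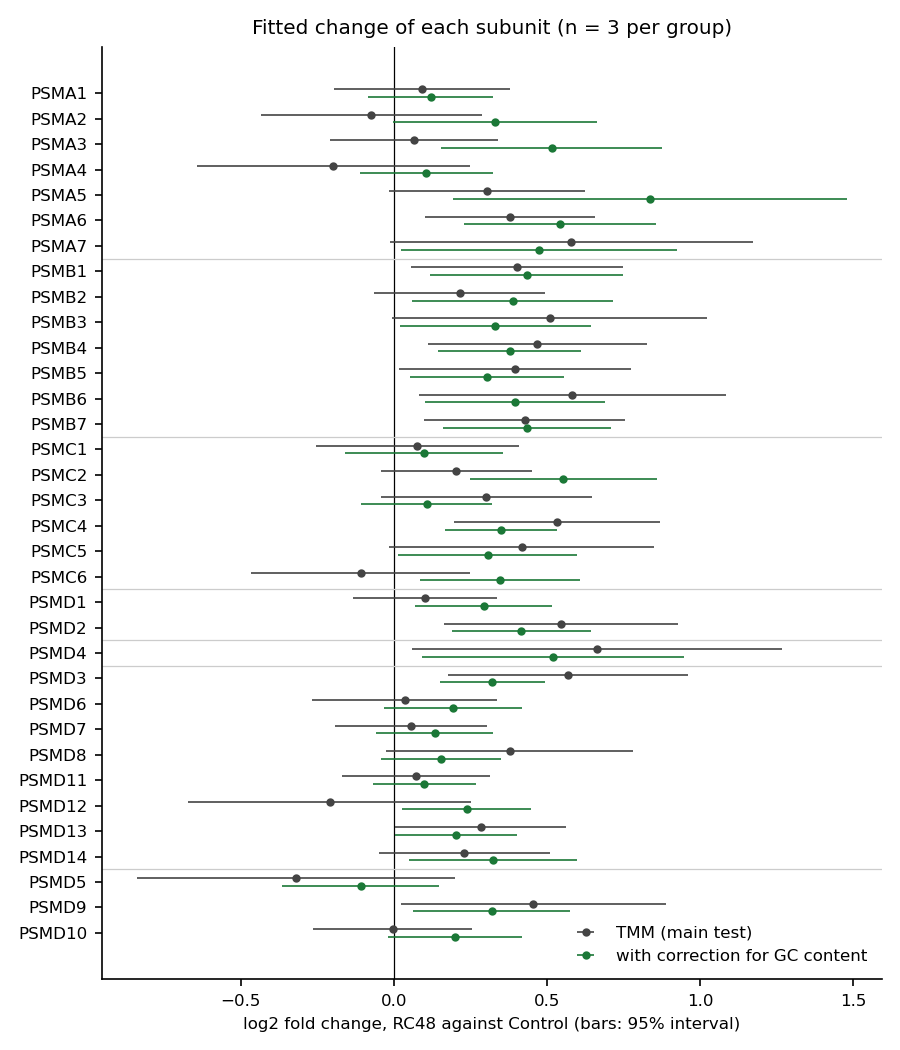
Fitted log2 fold change of RC48 against Control for the 34 genes with 95% intervals, ordered by role. Grey is the main test with TMM scaling, in which 12 intervals lie above 0 and 0 below, and green the fit with the correction for GC content, in which 23 lie above 0 and 0 below.

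The α ring had 5 of 7 genes higher, with a median log2 fold change of 0.09, and 7 of 7 with a median of 0.47 after the GC correction. PSMA6 was at 247, 244 and 213 CPM in Control and at 321, 280 and 315 CPM in RC48. All of its RC48 libraries were above all of its Control libraries, by 0.38 ± 0.12 on the log2 scale in the main test (adjusted p = 0.178). PSMA7, the most abundant member, was at 407, 441 and 369 CPM in Control and at 881, 429 and 510 CPM in RC48. Replicate 1 was far above the rest and the groups overlapped, with a fitted difference of 0.58 ± 0.26 (adjusted p = 0.265). PSMA4 was at 309, 305 and 275 CPM in Control and at 184, 304 and 287 CPM in RC48. Only replicate 1 stood apart, and the fitted value turned from -0.20 to 0.11 with the GC correction. PSMA2 was at 221, 227 and 182 CPM against 164, 211 and 223 CPM, and its value likewise turned from -0.07 to 0.33. Of the other members, PSMA1, PSMA3 and PSMA5 had fitted values of 0.09, 0.07 and 0.30.

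In the β ring, the fitted values spanned less than in the α ring, the ATPases or the lid. All 7 genes were higher, from PSMB2 (0.22) to PSMB6 (0.58), with a median of 0.43, and in 6 of 7, all but PSMB3, the RC48 libraries lay above the Control libraries. After the GC correction the values ran from 0.30 to 0.44. None was called in either fit, the lowest adjusted p being 0.189 in the main test (PSMB4) and 0.0584 with the GC correction (PSMB4). The chymotrypsin-like subunit PSMB5, the main target of bortezomib, was at 150, 155 and 136 CPM in Control and at 238, 159 and 184 CPM in RC48. Its groups did not overlap, though replicate 2 was only just above Control replicate 2. Its log2 fold change was 0.40 ± 0.16 (adjusted p = 0.252). The caspase-like subunit PSMB6 was at 170, 169 and 143 CPM and at 318, 173 and 230 CPM, a difference of 0.58 ± 0.22 (adjusted p = 0.223). The trypsin-like subunit PSMB7 was at 163, 161 and 133 CPM and at 234, 191 and 189 CPM, a difference of 0.43 ± 0.14 (adjusted p = 0.192). Of the 3 catalytic subunits, PSMB7 had the most even RC48 libraries. The structural subunits PSMB4 and PSMB1, next to PSMA7 the most abundant members, had differences of 0.47 ± 0.15 (adjusted p = 0.189) and 0.40 ± 0.15 (adjusted p = 0.225).

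The ATPases of the cap, which unfold the substrate and open the gate, had 5 of 6 genes higher, with a median of 0.25, or 6 of 6 and 0.33 with the GC correction. PSMC4 had the lowest adjusted p of all members in the main test. It was at 261, 265 and 230 CPM in Control and at 423, 307 and 365 CPM in RC48, so that even the lowest RC48 library was above the highest Control library. Its log2 fold change was 0.53 ± 0.15 (adjusted p = 0.137). PSMC2 was at 175, 168 and 164 CPM and at 183, 200 and 202 CPM. The groups did not overlap and the RC48 libraries were alike, with a difference of 0.20 ± 0.11 (adjusted p = 0.301). With the GC correction the difference became 0.55, and the RC48 libraries were no longer alike. The log2 ratios of PSMC2 to the Control mean were then 0.82, 0.25 and 0.54 in RC48 replicates 1, 2 and 3. PSMC6 was at 136, 142 and 138 CPM and at 102, 148 and 136 CPM. Only replicate 1 was low, and its value turned from -0.11 to 0.35 with the GC correction. PSMC1 (0.08), PSMC3 (0.30) and PSMC5 (0.42) lay between these, and PSMC1 was the 1 member whose estimated counts were not whole numbers, so that its reads were shared with other sequences and its value is uncertain.

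The scaffold subunits PSMD1 and PSMD2 hold the cap together, and PSMD2 (RPN1) also binds ubiquitin-like domains. PSMD2 was at 657, 658 and 648 CPM in Control and at 1194, 780 and 893 CPM in RC48. The Control libraries differed by less than 10 CPM, and every RC48 library was more than 100 CPM above them. The difference was 0.55 ± 0.16 (adjusted p = 0.167). PSMD1 was at 218 CPM ± 4.28 (SD, n = 3) in Control and 234 CPM ± 6.07 (SD, n = 3) in RC48, a difference of 0.10 ± 0.10 (adjusted p = 0.525) with no overlap between the groups. The ubiquitin receptor PSMD4 (RPN10) had the highest fitted value of all members. It was at 205, 208 and 182 CPM in Control and at 458, 217 and 265 CPM in RC48. Replicate 1 was far above the other RC48 libraries, and replicate 2 was only just above Control. Its log2 fold change was 0.66 ± 0.26 (adjusted p = 0.238), and 0.52 ± 0.19 (adjusted p = 0.127) with the GC correction.

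In the lid, 7 of 8 genes were higher, with a median of 0.15, or 8 of 8 and 0.20 with the GC correction. PSMD3 was at 248, 249 and 235 CPM in Control and at 453, 291 and 344 CPM in RC48, with every RC48 library above Control. Its difference was 0.57 ± 0.17 (adjusted p = 0.162). PSMD14 (RPN11), the deubiquitinase that cuts the chain from the substrate, was at 170, 169 and 146 CPM and at 205, 178 and 186 CPM. Its groups did not overlap, and its difference was 0.23 ± 0.12 (adjusted p = 0.301). PSMD12 was at 148, 143 and 140 CPM and at 86.8, 152 and 135 CPM. Only replicate 1 was far below Control, and its value turned from -0.21 to 0.24 with the GC correction. PSMD13 (0.28) and PSMD8 (0.38) were higher than PSMD6 (0.04), PSMD7 (0.06) and PSMD11 (0.07).

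PSMD5, PSMD9 and PSMD10 are assembly chaperones that bind the ATPases and leave before the cap is complete. PSMD5 had the lowest fitted value of the 6 members below 0. It was at 56.7, 57.0 and 56.3 CPM in Control and at 30.0, 57.1 and 49.3 CPM in RC48. Replicates 1 and 3 were below all Control libraries, replicate 2 was level with them. Its log2 fold change was -0.32 ± 0.22 (adjusted p = 0.387), and it was the only member with a value below 0 after the GC correction (-0.11 ± 0.11, adjusted p = 0.566). After that correction its log2 ratios to the Control mean were -0.39, 0.02 and 0.004 in RC48 replicates 1, 2 and 3. Only replicate 1 was then below Control, and without it all 34 members had corrected values above 0. PSMD9 was at 43.3, 46.6 and 39.6 CPM and at 74.7, 46.7 and 56.4 CPM, a difference of 0.46 ± 0.19 (adjusted p = 0.25) with replicate 2 level with Control replicate 2. PSMD10 (gankyrin) was at 75.2 CPM ± 2.79 in Control and 75.1 CPM ± 3.45 in RC48 (SD, n = 3 each), and its 95% interval ran from -0.26 to 0.26. The 3 chaperones had different values on the same scale, and the differences between them were not tested.

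Inducible catalytic subunits replace the constitutive ones in immunoproteasomes. The ratio of each inducible gene to its constitutive partner does not depend on how libraries are scaled, but it does carry any difference in GC content between the partners. For PSMB9 over PSMB6, the log2 ratio of counts was -2.56, -2.47 and -2.34 in Control and -1.96, -2.15 and -2.33 in RC48. Every RC48 library was above every Control library, although RC48 replicate 3 and Control replicate 3 were almost level. The difference was 0.31 with an exact permutation p of 0.1, two-sided, which is the smallest that 3 against 3 libraries can give (adjusted over the 3 ratios, 0.3). For PSMB8 over PSMB5 the mean ratio was -0.92 ± 0.04 in Control and -0.95 ± 0.07 in RC48 (SD, n = 3, exact permutation p = 0.7), and for PSMB10 over PSMB7 it was -1.36 ± 0.02 and -1.33 ± 0.19 (exact permutation p = 1). With the GC correction, the differences were 0.29 for PSMB9 over PSMB6 (exact permutation p = 0.2), -0.11 for PSMB8 over PSMB5 (exact permutation p = 0.4) and -0.25 for PSMB10 over PSMB7 (exact permutation p = 0.1, adjusted 0.3). The groups then overlapped for PSMB9 over PSMB6, and for PSMB10 over PSMB7, whose transcripts have GC contents of 60.4% and 49.0%, every RC48 library was below every Control library. The deposited TPM of 5 libraries, without RC48 replicate 2, gave 0.14 for PSMB10 over PSMB7, and the uncorrected counts without that library gave 0.14 too. The direction of that ratio turned with the GC correction. Without that correction it also turned when RC48 replicate 1 or RC48 replicate 3 was left out (-0.01 and -0.04). On the level per length, PSMB9 was at 13.2% of PSMB6 in Control and at 16.9% in RC48 replicates 1 and 3.

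**Figure D5:**
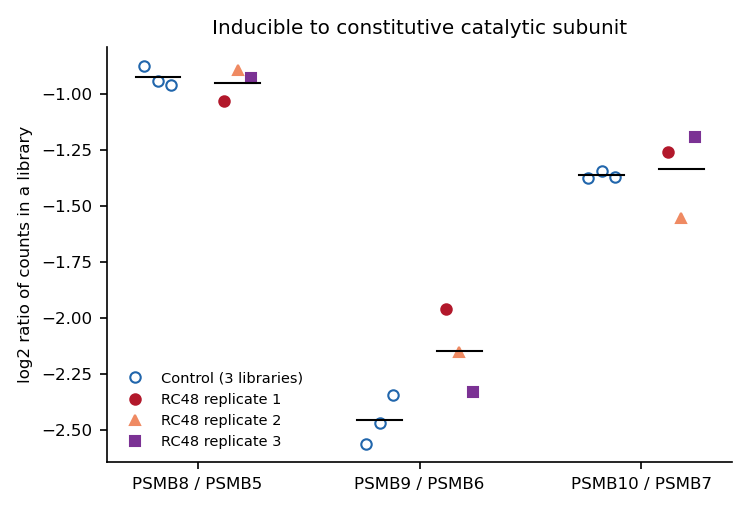
The log2 ratio of counts of an inducible catalytic subunit to its constitutive partner in each of the 6 libraries, with black bars at the group means. On these uncorrected counts the groups are separate only for PSMB9 over PSMB6, with means of -2.46 in Control and -2.15 in RC48.

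Other genes of the pathway were read from a list of 43 names, of which 41 were among the genes listed and 40 were tested. None was called in the main test (2.21% of all genes), and 11 were at an unadjusted p below 0.05 (19.1% of all genes in either direction). In that test 20 of the 40 were higher (51.4% of all genes), with a median of 0.03. DESeq2 called PSMB9 alone (4.78% of all genes). With the GC correction, 31 of 40 were higher (53.7% of all genes), with a median of 0.16. In that fit 3 were called, a share near that of all genes (8.2%). PSMB9 rose by 0.71 ± 0.16 (adjusted p = 0.0338), the segregase VCP, which pulls ubiquitinated proteins out of complexes, rose by 0.36 ± 0.08 (adjusted p = 0.0361), and the core assembly chaperone PSMG3 fell by 0.37 on the log2 scale (adjusted p = 0.0228). All 3 calls were lost when a Control library, or else RC48 replicate 3, was left out of the corrected fit. In the main test VCP was at 0.49 ± 0.15 (adjusted p = 0.162) and PSMG3 at -0.11 ± 0.15 (adjusted p = 0.654). Without the correction the groups of PSMG3 overlapped, and its RC48 replicate 1 was above the Control mean (log2 ratio 0.12). PSMB9 was at 28.9, 30.6 and 28.1 CPM in Control and at 81.8, 39.1 and 45.9 CPM in RC48, all above Control. In the main test its difference was 0.93 ± 0.27 (adjusted p = 0.154), with 0.36 for PSMB8 and 0.47 for PSMB10, which were both at 0.18 with the GC correction. The activator subunits PSME1 and PSME2 of the 11S cap were at 0.21 and 0.35 (0.11 and 0.21 with the GC correction), PSME3 and PSME4 at -0.11 and -0.17, and the inhibitor PSMF1 at 0.31. The core maturation factor POMP turned from -0.08 to 0.56 with the GC correction (adjusted p = 0.102). NFE2L1, the transcription factor of proteasome genes, was at 211, 211 and 228 CPM in Control and at 355, 242 and 273 CPM in RC48. Its groups did not overlap, with a difference of 0.42 ± 0.16 (adjusted p = 0.226), or 0.21 with the GC correction (adjusted p = 0.155). The polyubiquitin gene UBB had a difference of 0.43 ± 0.19 (adjusted p = 0.264), with overlapping groups.

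Because most members had fitted values of the same direction, their promoters were searched for the core of the antioxidant response element, to which NFE2L1 binds. RefSeq promoters (GRCh38.p14, 250 bases before to 50 after the start) were matched for 29 of the 34 genes. The motif TGACNNNGC was found on either strand in 7 of 29 (24.1%), against 13.6% of all 27305 promoters. The sites are shown 5′ to 3′ on the strand that holds the motif, with the motif in capitals and up to 8 bases on each side, because they are the letters on which this count rests.
PSMB3 (chr17:38752637-38752645, + strand): ctccgtttTGACTTTGCaaccaaac
PSMC4 (chr19:39971192-39971200, - strand): ctccatagTGACCAAGCcggcctct
PSMD1 (chr2:231056906-231056914, + strand): gaggcgacTGACTGAGCag
PSMD3, upstream of the start (chr17:39980770-39980778, + strand): ccctttgtTGACTCGGCcatcggcc
PSMD3, after the start (chr17:39980840-39980848, - strand): ccgcacgaTGACGGAGCagctgcaa
PSMD5 (chr9:120843048-120843056, - strand): gctacagtTGACACGGCcctaacgg
PSMD9, nearer to the start (chr12:121888688-121888696, + strand): gcttccggTGACCCAGCtccgccct
PSMD9, farther from the start (chr12:121888641-121888649, - strand): gcctgtggTGACCCGGCaggagtag
PSMD12 (chr17:67366734-67366742, - strand): acaaaaccTGACGCTGCaggctgga

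The 7 genes with the motif had a median log2 fold change of 0.46 and the 22 without it 0.21, and after the GC correction the medians were 0.32 and 0.31. PSMA7, PSMB1, PSMB6, PSMB7 and PSMD4, which include 3 of the 5 highest members, had no matched promoter and are in neither median. The 7 genes with the motif included PSMC4 and PSMD3, which were called with the correction, as well as PSMD5, the member with the lowest value. The PSMB3 site began 104 bases before the start and that of PSMC4 27 bases after it. The CCAAT box, searched on both strands as CCAAT, was in 15 of 29 promoters (51.7%, against 35.7% of all), and the ETS motif CCGGAAG in 10 (34.5%, against 10.7%). The median log2 fold change was 0.23 with and 0.10 without the CCAAT box (0.32 and 0.27 with the GC correction), and 0.14 with and 0.30 without the ETS motif (0.22 and 0.32). These are matches of letters in a short window, and binding was not measured here.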

How the data were processed

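RNA of SW780 cells was sequenced by BGI in 3 Control and 3 RC48 libraries. After filtering with SOAPnuke and mapping with Bowtie2, the authors estimated the counts of each gene with RSEM and deposited these estimated counts without normalization. The submitters' processing notes also name hg38 and limma, and versions and annotation are not given in the sources used here. The deposited TPM values, normalized by the authors for length and library size, were used for 5 libraries. Strandedness is not stated, so reads of overlapping antisense genes cannot be told apart.

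Estimated counts were rounded, filtered with filterByExpr, scaled by TMM, and RC48 was set against Control without covariates in the quasi-likelihood test of edgeR (R 4.3.3, edgeR 4.0.16), with Benjamini-Hochberg adjustment over all 13055 genes at 0.05. The study's methods name limma on log2(TPM+1), run here as an alternative on 5 libraries. GC content was the mean over the protein-coding transcripts of GENCODE v29 weighted by length (99.4% of genes), and relative length was the estimated count per TPM. Each correction subtracted a library's loess trend (span 0.3) as an offset. The procedure was tested on simulated data. Other alternatives were DESeq2 1.42.0, limma 3.58.1 (voom with quality weights, log2(TPM+0.1)), RLE factors, library sizes, no filter, 10 counts in every library, a replicate block and each library left out. The GC correction combined with length, with a library left out, or on the ratios was added after seeing the data. Ratios were computed in Python 3.11.15 with scipy 1.17.1.

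The 34 members, the other lists and the tests were chosen with earlier results of these data known. Named with values are members called, the 5 highest and 5 lowest by fold change, the catalytic subunits, the deubiquitinase, the ubiquitin receptors, the assembly chaperones, the 3 most and 3 least abundant by TPM, and fixed or called genes of the pathway list, of which 1 is not reported here. Other members were added with their fitted value, and SEM1 and ADRM1 of the pathway list with their TPM. SE and SD cover 3 libraries per group, and depth was 1.09 times higher in the deepest than in the shallowest library. No column was left without a sample.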

Additional observations from a re-analysis of the deposited data

How the results depend on the processing

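The median log2 fold change of the members stayed above 0 under every alternative run, and ran from 0.189 to 0.398 when each library was left out in turn, with or without the GC correction. The number of members called higher (0 in the main test) was 1 with DESeq2, 22 with voom weights and 5 with the GC correction. It was 4 with the replicate block and GC correction, and 6 with GC and length correction. In this order, the 5 fits called 4.78%, 61.4%, 8.2%, 7.25% and 10.6% of all genes. The last 4 of them called 30.4%, 5.52%, 4.76% and 6.56% of all genes higher. The 4 were PSMA6 and PSMC2 of the 5, with PSMA5 and PSMB7, while PSMC4, PSMD2 and PSMD3 were not called. With a library left out, 0 to 15 members were called higher (0.515% to 28.3% of all genes called, 0.50% to 14.1% as higher). With the GC correction as well it was 0 to 22 (2.72% to 15.4%, 2.23% to 9.19% as higher), and 7 without RC48 replicate 1. The number called lower was 1 with voom weights. Of the pathway genes (0 in the main test), 1, 24, 3, 1 and 5 were called under the same 5 settings (PSMB9 alone with the block and GC correction). With a library left out it was 0 to 16. The shares of all genes called in these fits are those given above. With the GC correction as well, 7 were called without RC48 replicate 1 (13.2% of all genes), 13 without RC48 replicate 2 (15.4%) and 0 in the other 4 fits. The members whose groups did not overlap were 19, 17 with RLE factors (16.1% of all genes) and 14 with library sizes alone (14.95%). The ratios over PSMB5, PSMB6 and PSMB7 differed by -0.1122, 0.2927 and -0.2477 with the GC correction, added after seeing the data. The replicate block alone called 0 members, with a median of 0.29. The labels do not say whether replicate numbers pair the libraries. Deviations of same-numbered libraries had correlations of 0.03, -0.16 and -0.01, and those of other pairs ran from -0.14 to 0.17. These values cannot decide it, because the trends of single libraries on GC content and length also enter the deviations. With the GC correction, the block and GC correction, and the GC and length correction, values below 0 turned positive for PSMD12 (0.24, 0.23, 0.23), PSMA4 (0.11, 0.11, 0.026), PSMC6 (0.35, 0.34, 0.33), PSMA2 (0.33, 0.33, 0.28), PSMD10 (0.20, 0.20, 0.15), PSME4 (0.14, 0.14, 0.15) and POMP (0.56, 0.53, 0.48). With voom weights they did for PSMA2 (0.016), PSMD10 (0.006) and POMP (0.11). With a library left out, values ran from -0.22 to 0.029 for PSMC6, from -0.18 to 0.042 for PSMA2, from -0.044 to 0.028 for PSMD10 and from -0.25 to 0.12 for POMP, each highest without RC48 replicate 1. PSME1 turned to -0.0055 with length correction and -0.0076 with GC and length correction. The causes were not tested. With 3 libraries per group, the intervals above set what size of difference could be called.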
